A study of Mus musculus with 4 samples.

Results

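Cdc42, a small GTPase, and the 5 BORG genes Cdc42ep1 to Cdc42ep5 were followed in polysome RNA of mouse ADSCs, 6 genes of the 18200 in the deposited table. The genes were selected on measured values: Cdc42ep5 stood among the largest increases between the groups, and Cdc42 and the other BORGs were added by name. Their differences between the groups are therefore given as a description, with no test. The series asks about translation and muscle differentiation after Ifit1 knockdown in cells that its title places among mesenchymal stem cells. Of the 4 libraries, 2 came from wild-type ADSCs with a scrambled control and 2 from wild-type ADSCs with an shRNA against Ifit1. Replicate 1 of each group carries the label batch 1 and replicate 2 the label batch 2. No label names the strain, age, number of clones or whether replicates were separate cultures, so the p-values cover no more than the differences among these 4 libraries, which may be technical. The polysome fraction is messenger RNA loaded with ribosomes. Without total RNA, more of a messenger and heavier loading of it cannot be told apart, and neither can fewer cells that express a gene and less of its RNA per cell.

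The targeted gene went against its label: Ifit1 (Entrez 15957), an interferon-induced RNA-binding protein, was at 1.93 and 1.91 FPKM (fragments scaled to gene length and library depth) in the scrambled-labelled libraries and at 13.9 and 14.8 in the knockdown-labelled ones. Higher and lower below always refer to the knockdown-labelled libraries relative to the scrambled-labelled ones. Fragments recovered from the FPKM of 15871 genes summed to between 24392503 and 29754645 per library. Summed over 12 stromal markers, FPKM was 164 and 165 in the scrambled-labelled libraries against 141 and 141. Of 9 tested markers, 7 were called higher and 2, Col1a1 and Col1a2, lower. Over all tested genes 27.4% were called higher and 41.2% lower. Col1a2 was at 100.2 and 100.9 against 33.8 and 34.7. Of the surface markers, Thy1 was at 3.71 and 3.68 FPKM in the scrambled-labelled libraries and at 31.0 and 30.3 in the knockdown-labelled ones, Ly6a was at 22.6 and 22.1 against 43.9 and 43.5, and Pdgfra was at most 0.121 in any library. The epithelial marker Epcam and the endothelial marker Pecam1 were at most 0.0124 FPKM, and the leukocyte marker Ptprc has no row. Summed markers ranged from 9.14 to 9.35 FPKM for leukocytes. For endothelium the sum was 1.69 and 1.63 in the scrambled-labelled libraries against 4.70 and 4.47. For adipocytes it was 8.26 and 8.24 against 7.36 and 7.40. The epithelial and mesothelial sum was 169 and 165 against 102 and 103, mostly Krt19, which fell. Krt7, Krt8 and Krt18 rose, Krt8 from 0.275 and 0.283 to 2.46 and 2.65 FPKM. The Y-linked genes Ddx3y, Eif2s3y, Kdm5d and Uty together had 3 and 1 fragments in the scrambled-labelled libraries and 252 and 307 in the knockdown-labelled ones. The difference in Y-linked genes follows the group label in all 4 libraries. Its part in the results below cannot be told apart from that of the knockdown label. What part the differences in markers had was not tested.

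Cdc42 switches between a GDP-bound and a GTP-bound state. Exchange factors load it with GTP, GTPase-activating proteins turn it off, and GDIs hold it in the cytosol. In the GTP-bound state it binds effectors through a short CRIB motif (Cdc42/Rac interactive binding), and these effectors shape filopodia, cell polarity and actin. The BORGs are effectors without catalytic activity that carry a CRIB motif and a region that binds septins, the filament-forming GTPases of the cell cortex. They place septins along actin fibres in fibroblasts and other cells.

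All 5 BORGs carry the CRIB motif, as do other effectors of Cdc42. Its coding sequence is shown because the BORGs bind Cdc42 through it, and their levels differed in direction here. Each stretch encodes 15 residues (45 bases, GENCODE M21, GRCm38, written 5′ to 3′ on the coding strand), with the codons of the 7 fixed residues of the motif in capitals.

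Cdc42ep1: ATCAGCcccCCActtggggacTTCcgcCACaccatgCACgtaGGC
Cdc42ep2: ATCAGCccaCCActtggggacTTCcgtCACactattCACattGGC
Cdc42ep3: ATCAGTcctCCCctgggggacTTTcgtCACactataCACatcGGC
Cdc42ep4: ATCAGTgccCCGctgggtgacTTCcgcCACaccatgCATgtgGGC
Cdc42ep5: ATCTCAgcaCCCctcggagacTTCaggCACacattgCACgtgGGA

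The stretch of Cdc42ep1 lies at chr15:78847468-78847512 on the plus strand. That of Cdc42ep2 lies at chr19:5918544-5918588, that of Cdc42ep3 at chr17:79335355-79335399, that of Cdc42ep4 at chr11:113729441-113729485 and that of Cdc42ep5 at chr7:4151677-4151721, all on the minus strand and all within a single coding exon. Cdc42ep2 and Cdc42ep3 encode the same 15 residues with 38 of 45 bases alike. Cdc42ep5 shared 14 of 15 residues with Cdc42ep4 and 32 of 45 bases, and 29 of 45 bases with Cdc42ep3, the lowest of the 10 pairs. The encoded proteins differ in length, from 150 residues for Cdc42ep5 through 214 for Cdc42ep2, 254 for Cdc42ep3 and 349 for Cdc42ep4 to 409 for Cdc42ep1. Across whole proteins, identical residues made up 53.3% of Cdc42ep5 in its alignment with Cdc42ep1 and 36.7% with Cdc42ep3. The deposited table gives all 5 BORGs the same 9 gene ontology terms, among them small GTPase binding, regulation of cell shape and pseudopodium assembly, and of the 5 only Cdc42ep5 carries the term JNK cascade.

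Cdc42ep5 (Entrez 58804, chromosome 7, 4151260 to 4164860 on the minus strand of GRCm38) is the shortest BORG and acts on septins and actomyosin. It was at 1.82 and 1.80 FPKM in the scrambled-labelled libraries and at 34.4 and 33.8 in the knockdown-labelled ones. The groups lay far apart and the libraries within a group lay close together, with means of 1.81 ± 0.00862 (SD, n = 2) and 34.1 ± 0.454 (SD, n = 2), an 18.9-fold difference. The log2 change of FPKM + 1 was 3.64 (SE 0.02), with 3.65 within batch 1 and 3.63 within batch 2, and it was the rank 4 increase of 8750 tested genes. On FPKM without the added 1, the log2 ratio of the means was 4.24. Behind these values stood 63 and 76 fragments in the scrambled-labelled libraries against 1465 and 1319, and the exact 95% interval of the ratio of fragments at equal depth ran from 15.9 to 22.6. That interval covers counting error only, and the counting error of the log2 change was 0.0835, larger than the fitted SE. Among the tested genes ordered by FPKM, Cdc42ep5 stood above 13.1% in the scrambled-labelled libraries and above 77.0% in the knockdown-labelled ones.

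The promoter of Cdc42ep5 is shown because this gene carried the largest difference of the family. The window runs from 250 bases before to 50 after the RefSeq start (chr7:4164656-4164955, minus strand, GRCm38.p6), with each CG dinucleotide in capitals.

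Cdc42ep5 promoter: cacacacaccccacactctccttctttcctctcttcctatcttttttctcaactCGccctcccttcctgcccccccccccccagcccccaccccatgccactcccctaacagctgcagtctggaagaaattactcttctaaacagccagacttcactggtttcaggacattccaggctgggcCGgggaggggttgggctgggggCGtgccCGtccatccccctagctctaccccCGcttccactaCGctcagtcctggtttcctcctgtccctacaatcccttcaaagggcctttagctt

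It holds 6 CG dinucleotides, against a median of 7 over 32851 mouse promoter windows of the same length. The 6 windows of Cdc42 and the other BORGs held between 17 and 40, Cdc42ep1 the most. In GENCODE, Cdc42ep5 reaches 4164860, upstream of the RefSeq start and inside its window. A window around that end was not counted, and the count may depend on the start used. The core of the interferon-stimulated response element, GAAANNGAAA on either strand, occurred in none of the 7 windows of these 6 genes and in 3.44% of all windows. These counts describe letters in the windows and nothing about the binding of a factor.

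**Figure D1:**
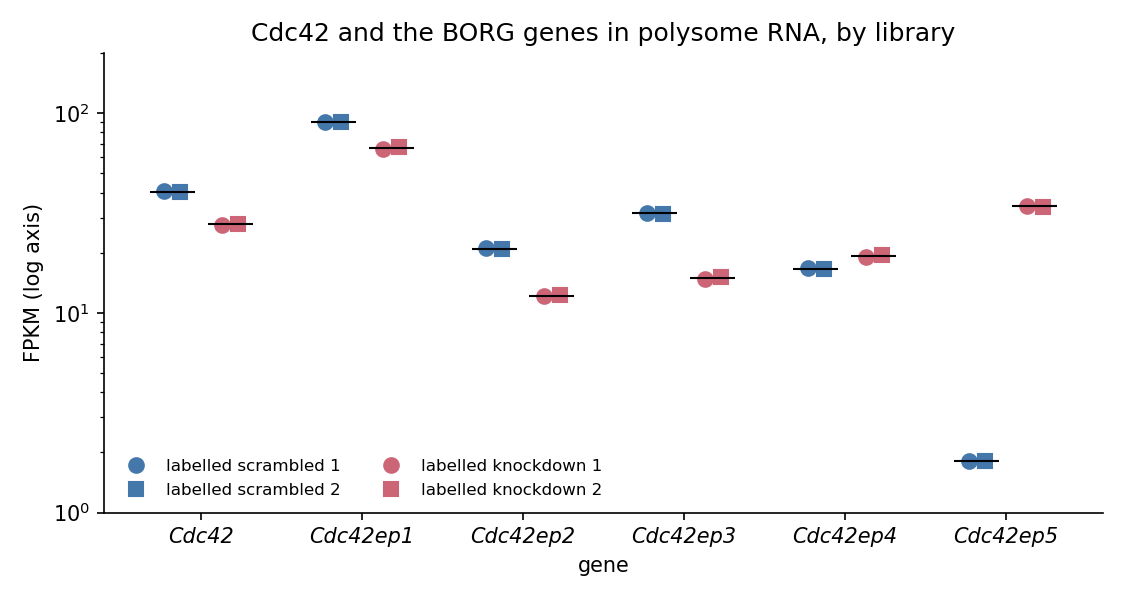
FPKM (log axis) of Cdc42 and the 5 BORG genes in each of the 4 libraries, with circles for replicate 1, squares for replicate 2 and a line for the mean of each group. Cdc42ep5 goes from about the level of 1.81 FPKM to 34.1, Cdc42ep4 is slightly higher, and the other 4 genes are lower in the knockdown-labelled libraries.

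Of the other BORGs, Cdc42ep1, Cdc42ep2 and Cdc42ep3 were lower and Cdc42ep4 was higher in the knockdown-labelled libraries, and the groups overlapped for none of them. Cdc42ep3 (Entrez 260409, chromosome 17), which links septin and actin filaments in fibroblasts, was at 31.6 and 31.4 FPKM against 14.8 and 15.1, a 2.10-fold lower mean (log2 change -1.03, SE 0.02, from 2428 and 2932 against 1394 and 1307 fragments). Both libraries labelled knockdown held less than either labelled scrambled, by -1.04 within batch 1 and -1.01 within batch 2 on the log2 scale. Cdc42ep2 (Entrez 104252, chromosome 19), a septin-binding BORG that promotes pseudopodia, was at 21.0 and 20.9 FPKM against 12.1 and 12.3, a 1.72-fold lower mean (log2 change -0.74, SE 0.02, with -0.75 and -0.72 within the batches). It had 1010 and 1221 fragments against 711 and 665.

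Cdc42ep1 (Entrez 104445, chromosome 15), which drives long membrane extensions in fibroblasts, was the most abundant BORG in every library, at 90.7 and 90.4 FPKM against 66.3 and 67.8. Its mean was 1.35-fold lower (log2 change -0.43, SE 0.02, with -0.45 and -0.41 within the batches, from 7424 and 8989 against 6648 and 6236 fragments). Cdc42ep4 (Entrez 56699, chromosome 11), which binds septins in glial cells of the mouse cerebellum, was at 16.7 and 16.6 FPKM against 19.1 and 19.5. Its mean was 1.16-fold higher (log2 change 0.20, SE 0.02, with 0.18 and 0.22 within the batches), the smallest difference of the 6 genes, and its fragments gave an exact 95% interval of 1.10 to 1.22 for the ratio.

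Cdc42 itself (Entrez 12540, chromosome 4, 137319696 to 137357720 on the minus strand of GRCm38) was at 40.5 and 40.1 FPKM in the scrambled-labelled libraries and at 27.5 and 28.0 in the knockdown-labelled ones. The groups did not overlap, the mean was 1.45-fold lower, and the log2 change was -0.52 (SE 0.02), with -0.55 and -0.50 within the batches. The GTPase and 3 of its 5 BORG effectors thus lay lower while Cdc42ep4 and Cdc42ep5 lay higher. In all, 2 of the 6 genes lay higher and 4 lower. In the fit over all tested genes, 27.4% were called higher and 41.2% lower at an adjusted p under 0.05, and since the 6 genes were selected on this contrast nothing is read from their count. Centring each library on its median moved all log2 changes up by 0.17. The changes were then 3.82 for Cdc42ep5, 0.37 for Cdc42ep4, -0.26 for Cdc42ep1, -0.35 for Cdc42, -0.56 for Cdc42ep2 and -0.85 for Cdc42ep3, with the same directions.

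Summed over the 5 BORGs, FPKM came to 162 and 161 in the scrambled-labelled libraries and to 147 and 149 in the knockdown-labelled ones. Without Cdc42ep5 the sums were 160.0 and 159 against 112 and 115. Cdc42ep5 made up 1.12% of the BORG sum in both scrambled-labelled libraries and 23.5% and 22.8% in the knockdown-labelled ones. The share of Cdc42ep1 was 56.0% and 56.1% against 45.2% and 45.6%, and that of Cdc42ep3 was 19.5% in both against 10.1% and 10.2%. The share of Cdc42ep4 was 10.3% in both against 13.0% and 13.1%. Relative to Cdc42, the BORG sum was 3.99 and 4.02 times its FPKM in the scrambled-labelled libraries and 5.34 and 5.30 times in the knockdown-labelled ones. The BORG sum thus lay lower, its make-up shifted toward Cdc42ep5, and its ratio to Cdc42 lay higher.

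**Figure D2:**
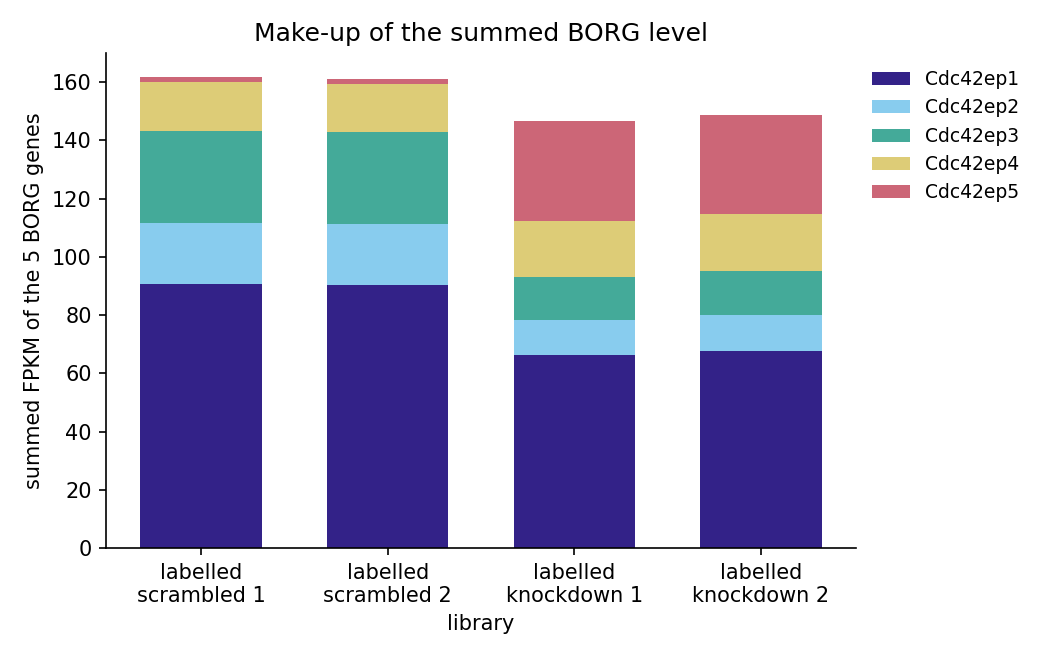
Summed FPKM of the 5 BORG genes in each library, stacked by gene on an axis that starts at 0. The total is 162 and 161 in the scrambled-labelled libraries and 147 and 149 in the knockdown-labelled ones, where Cdc42ep5 takes up 23.5% and 22.8% of it.

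The order of the levels differed between the groups. In the scrambled-labelled libraries it ran, from the highest, Cdc42ep1, Cdc42, Cdc42ep3, Cdc42ep2, Cdc42ep4 and Cdc42ep5, and in the knockdown-labelled ones Cdc42ep1, Cdc42ep5, Cdc42, Cdc42ep4, Cdc42ep3 and Cdc42ep2. No neighbours in either order overlapped over their 2 libraries, so each step was larger than the spread between replicates. On this scale Cdc42ep5 moved from position 6 to position 2. The order, and the BORG sum and shares, depend on the gene lengths behind the FPKM. Relative to Cdc42ep5, the length implied by fragments per FPKM was 1.38 for Cdc42ep2 and 1.98 for Cdc42ep4, against 3.33 and 3.32 for the longest GENCODE transcripts. Per GENCODE length, Cdc42ep4 (1150 fragments over 3405 bases) lay above Cdc42ep2 (1010 over 3411) already in library 1 labelled scrambled. The gap was widest for Cdc42. Its 20851 fragments in library 1 labelled scrambled were more than the 7424 of Cdc42ep1, and each FPKM unit stood for 14.8 times as many fragments as for Cdc42ep5. The longest GENCODE transcripts, of 2108 and 1025 bases, differ 2.06-fold. If the authors counted shared fragments as fractions, the whole numbers for Cdc42 would be multiples of the true ones, and this and a long gene model cannot be told apart. Differences of Cdc42 between the groups do not depend on that length.

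Transcript length moved with the differences across the tested genes. Over 8690 genes with a GENCODE length, genes with a longer longest transcript had lower log2 changes (Spearman correlation -0.40 across genes, which share the 4 libraries). The trend at the length of Cdc42ep5 was 0.29 on the log2 scale, against its own change of 3.64. With the trend taken out, the log2 changes were 3.35 for Cdc42ep5, 0.37 for Cdc42ep4, -0.37 for Cdc42ep1, -0.54 for Cdc42, -0.56 for Cdc42ep2 and -1.01 for Cdc42ep3. All 6 kept their direction.

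**Figure D3:**
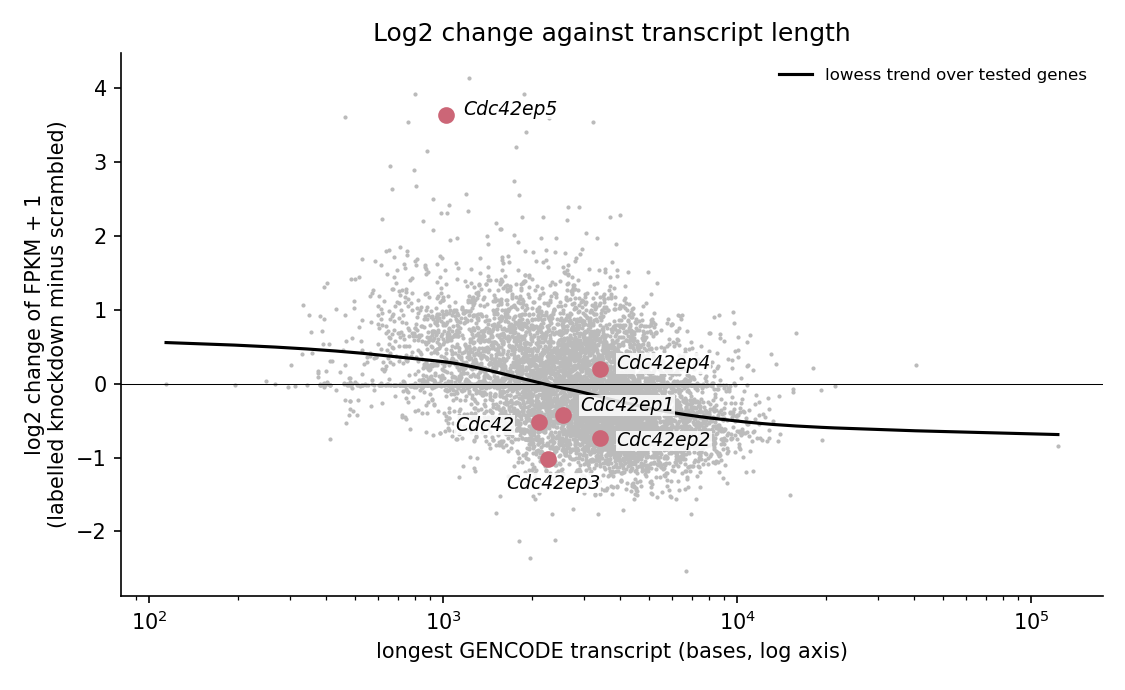
Log2 change of FPKM + 1 (knockdown-labelled minus scrambled-labelled libraries) against the longest GENCODE transcript in bases (log axis) for the tested genes in grey, with the lowess trend in black and the 6 genes in red. Cdc42ep5, with a transcript of 1025 bases, lies at 3.64 and far above the trend of 0.29, and Cdc42, Cdc42ep1, Cdc42ep2 and Cdc42ep3 lie below the line.

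Exchange factors and GTPase-activating proteins of Cdc42 were lower in the knockdown-labelled libraries, and the GDIs were not. Of 8 tested exchange factors of 23 listed, 8 fell and 0 rose (median log2 change -0.49, against -0.02 over all tested genes, of which 41.2% fell and 27.4% rose). Fgd1, an exchange factor of Cdc42 with a FYVE domain, fell from 13.5 FPKM in both libraries to 7.16 and 7.34 (log2 change -0.81, limma adjusted p = 1.6e-04). Arhgef7, also known as beta-Pix, fell from 3.56 in both to 1.59 and 1.63, the endocytic scaffold Itsn1 from 2.81 and 2.79 to 1.36 and 1.39, and Dnmbp, or Tuba, from 2.34 and 2.32 to 1.46 and 1.49. These genes have long transcripts, with a median of 5366 bases against 3088.5 over all tested genes. With the length trend taken out 4 fell and 2 rose, while Dnmbp no longer passed. In that setting 3208 of the 8690 genes with a GENCODE length fell and 2766 rose.

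Of 8 tested GTPase-activating proteins of 14 listed, 8 fell and 0 rose, with a median log2 change of -0.97 and a median transcript of 4934.5 bases, and over all tested genes 41.2% fell. Among them Srgap2, at 1.39 and 1.37 against 0.823 and 0.836 FPKM, passed the filter on low values only through the group where it is high, and is named here after its values were seen. Racgap1, which acts in cytokinesis, fell from 78.0 and 78.2 to 26.6 and 27.3 FPKM (log2 change -1.50, limma adjusted p = 1.6e-04). Arhgap1, known as Cdc42GAP, fell from 24.7 and 24.4 to 11.5 and 11.7, Abr from 4.82 and 4.89 to 1.71 and 1.76, and Arhgap31, or CdGAP, from 3.92 and 3.95 to 1.43 and 1.47. With the length trend taken out, 7 fell and 1 rose, beside 3208 and 2766 of the 8690 genes with a GENCODE length. The GDIs went the other way: of 3 tested, 2 rose and 0 fell, and over all tested genes 27.4% rose. Arhgdib, the GDI abundant in blood cells, rose from 5.62 and 5.61 to 37.5 and 38.9 FPKM (log2 change 2.57, limma adjusted p = 1.6e-04), with summed leukocyte markers of 9.28 and 9.19 against 9.14 and 9.35. In that sum, over 4 of 8 listed markers, Cd14 was called higher (5.16 and 5.14 against 5.85 and 5.99 FPKM) while Coro1a was called lower (3.71 and 3.70 against 2.90 and 2.96). The part of such cells in the rise of Arhgdib was not tested. Arhgdig rose 1.83-fold. Arhgdia, the ubiquitous GDI, outside the rule for named genes and chosen after its values were seen, was at 674 and 766 FPKM against 774 and 690.1 and did not pass.

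Other effectors of Cdc42 were more often lower than higher, as were all tested genes, of which 41.2% fell and 27.4% rose. Of 22 tested effectors of 27 listed, 13 fell (59.1%), 3 rose (13.6%) and 6 did not pass, with a median log2 change of -0.44. Their median transcript had 4178.5 bases, against 3088.5 over all tested genes. Of those that fell, Fmnl2 (1.69 and 1.63 against 0.583 and 0.589 FPKM) and Pak3 (1.28 and 1.27 against 0.734 and 0.748) passed the filter only through the group where they are high, and are named here after their values were seen. Pak2, a kinase that Cdc42 and Rac activate, fell from 15.0 and 14.6 to 6.45 and 6.53 FPKM (log2 change -1.07), and Pak1 from 12.1 and 12.2 to 5.52 and 5.67. Cdc42bpb, the kinase MRCK beta, fell from 4.63 and 4.67 to 1.89 and 1.95, and the membrane-bending adaptor Fnbp1 from 3.97 and 3.84 to 1.37 and 1.38. Each of these 4 had limma adjusted p = 1.6e-04, the smallest value in the fit. With counting error as the smallest SE, limma adjusted p ran from 6.7e-04 for Pak2 to 0.0012 for Pak1. The 3 that rose were Map3k11, Map3k10 and Pard6a, named after their values were seen. Map3k10, a mixed-lineage kinase, was at 4.28 and 4.12 against 12.4 and 11.7 FPKM, and the polarity protein Pard6a at 20.3 and 19.8 against 39.3 and 38.9. With the length trend taken out 11 fell and 7 rose, beside 3208 and 2766 of the 8690 genes with a GENCODE length. After median-centring 12 fell and 5 rose, beside 3040 and 2833 of the 8750 tested genes.

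Septins, the filaments that BORGs bind, were split. Of 8 tested of 13 listed, 3 fell (37.5%), 1 rose (12.5%) and 4 did not pass, with a median log2 change of -0.07. Over all tested genes 41.2% fell and 27.4% rose, so the share of septins that fell was near that of all genes. Septin11 fell from 29.3 and 28.5 to 10.8 and 11.0 FPKM (log2 change -1.33, limma adjusted p = 1.6e-04) and Septin8 from 20.3 and 20.1 to 9.94 and 10.2 (log2 change -0.94). Septin9 was at 38.6 and 38.4 against 34.9 and 35.5 (log2 change -0.13, limma adjusted p = 0.0089), but at 0.046 after median-centring, where it did not pass, and at 0.19 with the length trend taken out, where it passed. Septin5 was at 41.8 and 41.6 against 45.5 and 46.5 (log2 change 0.14, limma adjusted p = 0.0085). With batch as a replicate block neither Septin5 nor Septin9 passed (0 higher and 2 lower), and the same held without either library labelled scrambled. Septin2 and Septin7, core subunits of septin filaments and chosen after their values were seen, did not pass: Septin2 was at 61.8 and 41.2 against 40.5 and 60.7 FPKM, and Septin7 at 73.7 and 53.8 against 52.1 and 73.7. In both genes, library 1 labelled scrambled lay close to library 2 labelled knockdown, and library 2 labelled scrambled close to library 1 labelled knockdown.

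Of 19 tested genes of the Arp2/3 complex and actin turnover, 10 fell, 6 rose and 3 did not pass. The cortical actin-binding protein Cttn fell from 91.1 and 90.1 to 50.9 and 51.8 FPKM, Wasf2, which activates Arp2/3 downstream of Rac, from 17.2 and 17.5 to 8.67 and 8.97, and Wasf1 from 3.96 and 3.92 to 2.31 and 2.35. The profilin Pfn2 rose from 17.5 and 17.3 to 33.0 and 33.4. Read against the 27.4% higher and 41.2% lower among all tested genes, exchange factors and GTPase-activating proteins were each at 0% and 100%, the GDIs at 66.7% and 0%, this list at 31.6% and 52.6%, the septins at 12.5% and 37.5% and the other effectors at 13.6% and 59.1%.

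**Figure D4:**
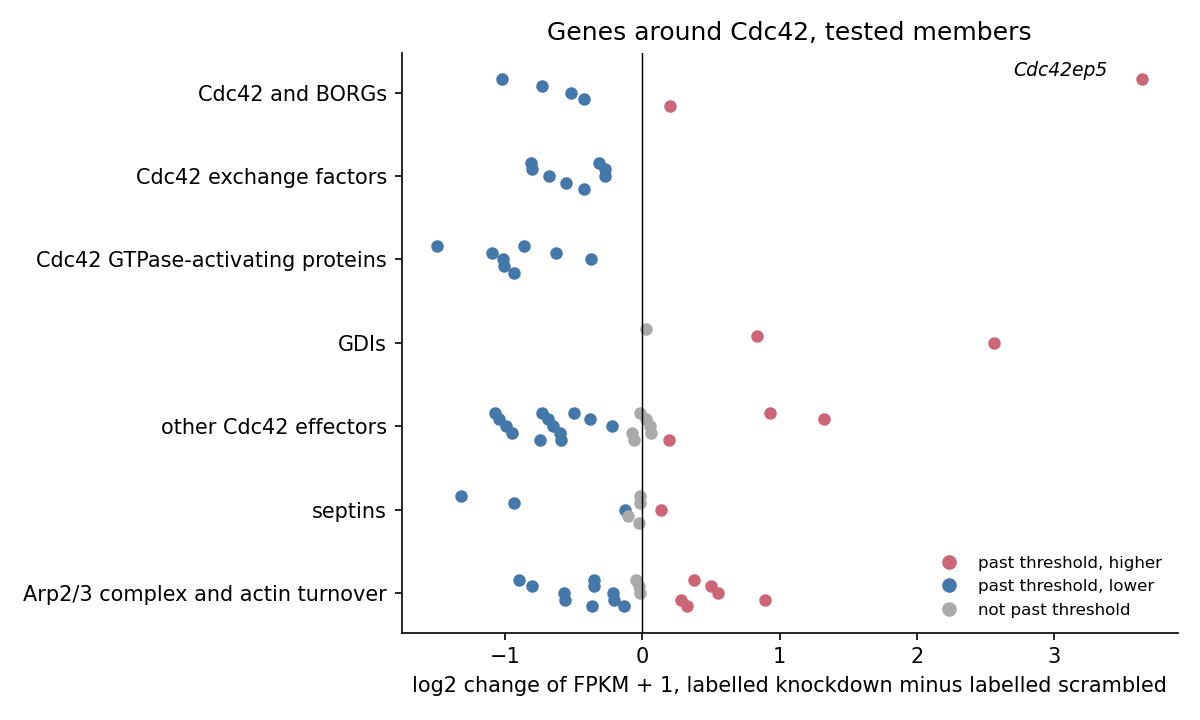
Log2 change of FPKM + 1 of each tested gene, in rows for Cdc42 with the BORGs and for 6 lists of genes around Cdc42, with red for genes past the threshold and higher, blue for those lower and grey for those not past it in the knockdown-labelled libraries. All 8 exchange factors and all 8 GTPase-activating proteins lie to the left of 0, and Cdc42ep5 at 3.64 lies to the right of every other point.

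Tested protein-coding genes, with predicted genes, pseudogenes and RIKEN genes left out, were ordered by likeness to Cdc42ep5 over the 4 libraries. The measure was the Euclidean distance of log2(FPKM + 1) centred on each gene's mean. Nearest were Ifi27l2a (distance 0.0442), Isg15 (0.102), Irf7 (0.105), Psmb8 (0.241) and Crabp1 (0.286). With 2 libraries in each group this likeness rests almost wholly on the size of the difference between the groups. Ifi27l2a and Irf7 passed the filter on low values only through the group where they are high. The likeness also depends on the added 1. On FPKM without it, the log2 ratio of the means was 5.69 for Ifi27l2a, 4.72 for Irf7, 3.94 for Crabp1, 3.70 for Psmb8 and 3.58 for Isg15, against 4.24 for Cdc42ep5. Ifi27l2a was at 0.281 and 0.290 FPKM against 15.1 and 14.4, Irf7 at 0.723 and 0.740 against 19.1 and 19.4, and Isg15 at 40.8 and 40.2 against 480.3 and 490.3. Psmb8 was at 4.14 and 4.08 against 52.6 and 53.9, and Crabp1, the most abundant of the 5, at 166 and 164 against 2511 and 2537.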

How the data were processed

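Polysome RNA of 4 libraries was analysed. The values are FPKM computed by the authors, named so in the sample labels. Per the submitters' processing notes, the builds GRCm38, mm10 and GRCm39 were used, with no role given, and the aligner, counter, annotation, strand setting and treatment of multi-mapping reads were not given in the sources used here. Coordinates and sequences come from GENCODE M21 and RefSeq GRCm38.p6. Lengths were matched by symbol, else by Entrez ID. Overlapping genes can share fragments: in GENCODE, Lgals2 overlaps Cdc42ep1, Gm17315 overlaps Cdc42ep3 and Gm25772 overlaps Cdc42, all on the opposite strand.

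The 8750 genes whose mean FPKM reached 1 were fitted as log2(FPKM + 1) in R 4.3.3 by limma 3.58.1 without a block (lmFit, then eBayes with a mean-variance trend), with two-sided p-values adjusted by Benjamini-Hochberg over those genes and a threshold of 0.05. The 6 members all passed the filter. The pseudocount of 1 understates changes of low genes. The median SE was 0.0208, below the median counting error of 0.0382. For a gene whose SE lies below its counting error, the limma adjusted p is too small. With counting error as the smallest SE, 2249 genes were called higher and 3480 lower. The limma adjusted p was then 7.8e-04 for Fgd1, 6.7e-04 for Arhgdib and 0.017 for Septin5. No limma adjusted p was below 1.6e-04, a value that many named genes share. Whole fragments were recovered from the steps of low FPKM (tolerance 0.001) for 8692 tested genes (99.3%), and cover counting error only. Both steps were tested on simulated data. For the fit, the simulated replicates varied by more than counting error, whereas the median SE here lay below it. That simulation therefore does not cover replicates as close as these. Replicate numbers coincide with the labels' batch, and values given within a batch pair the libraries by that label only. The differences between replicates 1 and 2 correlated at r = -0.83 between the groups over the tested genes. They thus tended to run in opposite directions in the groups, and the label's pairs are not shown to be matched.

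Members and lists were chosen with earlier results of these data known. List genes were named as the 4 tested members with the smallest p (2 in lists with fewer than 8 tested). Beside them stand the 5 protein-coding genes nearest to Cdc42ep5, with predicted genes, pseudogenes and RIKEN genes left out. Symbols matched the table for 114 of 119 list entries. Python 3.11.15 and Biopython 1.88 (BLOSUM62 alignment) served the sequences. The 12 alternatives were a pseudocount of 0.1, no filter, batch as a replicate block, a crossed block, median-centring, quantile normalization, counting error as the smallest SE, removal of the length trend, and leaving out each of the 4 libraries, where the lone library is assumed to vary like the other group. A further list is not reported here.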

Additional observations from a re-analysis of the deposited data

How the results depend on the processing

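The log2 changes of Cdc42 and the 5 BORGs kept their sign under 12 alternatives each, given as a description since the genes were selected on this contrast, from 3.35 to 4.16 for Cdc42ep5, 0.19 to 0.37 for Cdc42ep4, -0.44 to -0.26 for Cdc42ep1, -0.54 to -0.35 for Cdc42, -0.78 to -0.56 for Cdc42ep2 and -1.07 to -0.85 for Cdc42ep3. Of all genes, 3819 were higher and 4679 lower without the filter on low values, against 2401 and 3608 with it. With the length trend removed 2766 were higher and 3208 lower, and after median-centring 2833 and 3040. Exchange factors came to 2 higher and 15 lower without the filter and to 2 and 4 with the length trend removed. That removal gave 1 higher GTPase-activating protein, 7 higher effectors and 3 higher septins. Median-centring gave 5 higher effectors. Septins called higher were 2 without the filter, 0 with the replicate block and 0 to 1 when each library was left out. Septin9 reversed to 0.046 after median-centring and to 0.19 with the length trend removed, and the cause was not tested. The replicate block gave 2205 genes higher and 3417 lower and changed, of the 27 genes it was run for by name (Ifit1 and the list genes named by the rule), the calls of Septin5 and Septin9. Pairing replicate 1 of one group with replicate 2 of the other, chosen after seeing the data, gave 2962 and 4282, with 5 higher effectors. Depth limits Cdc42ep5 most, at 63 and 76 fragments in the scrambled-labelled libraries.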

Other observations

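Among genes not past the threshold, most had a pattern over the libraries that crosses the labels, in the lists around Cdc42 as elsewhere. Of the 14 such list genes, 11 (78.6%) had it. Each of their libraries lay nearest, in log2(FPKM + 1), to the library with the other group label and the other replicate number. The same held for 1818 of 2741 tested genes that were not past the threshold (66.3%) and for 0 of the 6009 past it, shares that the test itself shapes, since it passes genes whose libraries lie near their own group. Over all 8750 tested genes, 20.8% had this crossed pattern and in 69.5% each library lay nearest to its own group. Septin10 was at 15.4 and 12.7 FPKM in the scrambled-labelled libraries and at 12.4 and 15.2 in the knockdown-labelled ones. Baiap2, an effector that links Cdc42 to membrane curvature, was at 7.88 and 6.44 against 6.02 and 7.43. These genes were chosen after their values were seen. For Cdc42 and the 5 BORGs, each library lay nearest to the other library of its own group, as in all 6009 genes past the threshold. The 6 genes were selected on this contrast, so nothing is read from that.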
